A study of Homo sapiens with 3 samples.

Results

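The genes described here are 10 cytosolic and mitochondrial heat shock genes, chosen by name: HSPA1A, HSPA1B, HSPA8, HSPH1, DNAJB1, HSP90AA1, HSP90AB1, HSPB1, HSPD1 and HSPE1. All 10 had a probe on the arrays, 16 probes in all, among 50599 probes of which 30004 could be tied to 21610 genes. HT29, an established cell line from a human colon adenocarcinoma, was cultured on 3 substrates: tissue culture polystyrene plates (TCP, labelled 2D), chitosan membranes (CS, labelled chitosan) and chitosan membranes grafted with hyaluronan (CSHA, labelled chitosan_HA). Chitosan is a polysaccharide derived from chitin, and hyaluronan is a polysaccharide of the extracellular matrix. Cy3-labelled RNA of each culture was hybridized to 1 single-colour Agilent array, so each substrate has 1 sample, no replicate checks a difference between them and no p-value is given. The culture time before RNA was taken for the arrays is not given in the sources used here, and the arrays cover a single cell line.

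Heat shock proteins are molecular chaperones. HSP70 binds unfolded stretches of other proteins, J-domain proteins such as DNAJB1 bring the substrates and start ATP hydrolysis, and HSP110 (HSPH1) exchanges the nucleotide. HSP90 takes over late folding steps of kinases and receptors, small heat shock proteins such as HSPB1 hold unfolded proteins without ATP, and HSPD1 with its lid HSPE1 (HSP60 and HSP10) folds proteins in the mitochondrial matrix. HSPA8 and HSP90AB1 are known as the constitutive cytosolic HSP70 and HSP90, while HSPA1A, HSPA1B and HSP90AA1 are the strongly heat-inducible forms. The transcription factor HSF1 induces these genes under stress through heat shock elements, in which GAA and its complement TTC alternate.

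The promoter sequences are shown as a description, since 8 of the 10 genes hold the letters of this element. Among them are the genes furthest above TCP on CSHA, HSPA1A and HSPA1B, and those furthest below, HSPA8 and HSP90AB1. DNAJB1, which stayed nearly level, holds them too. A link between the letters and the differences on the arrays was not tested. The sequences were taken from RefSeq on the GRCh38.p14 build, with 250 bases before each annotated start. The capitals mark each match to GAANNTTC or TTCNNGAA, where N is any base, with overlapping matches joined. Both patterns read the same on either strand. The windows of HSPA1A (chr6:31815293-31815542, plus strand) and HSPA8 (chr11:123062137-123062386, minus strand) are given whole, 5′ to 3′.
HSPA1A: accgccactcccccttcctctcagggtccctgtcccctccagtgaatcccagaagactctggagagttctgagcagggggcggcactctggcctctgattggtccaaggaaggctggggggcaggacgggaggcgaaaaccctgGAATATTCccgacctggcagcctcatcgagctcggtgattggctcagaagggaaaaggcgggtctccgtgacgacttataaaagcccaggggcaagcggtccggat
HSPA8: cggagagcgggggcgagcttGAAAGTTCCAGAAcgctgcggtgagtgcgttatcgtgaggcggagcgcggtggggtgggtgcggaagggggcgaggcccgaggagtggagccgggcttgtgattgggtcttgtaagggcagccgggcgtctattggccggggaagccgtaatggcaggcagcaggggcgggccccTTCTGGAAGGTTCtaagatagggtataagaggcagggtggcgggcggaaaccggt
The HSPA1A window holds 1 match, which starts 106 bases before the annotated start, together with a TATAAA box. The HSPA8 window holds 4 overlapping or adjoining matches, at 230, 225, 55 and 50 bases before the start, and no TATAAA. The promoters of HSPA1A and HSPA1B were 93.6% identical over an alignment of 251 positions (235 identical), whereas those of HSPA1A and HSPA8 were 50.4% identical.

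The matches of the other genes are shown as stretches of 30 bases, to compare their letters.
HSPA1B, chr6:31827622-31827651, plus strand: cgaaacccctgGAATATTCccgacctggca
HSP90AA1, chr14:102087112-102087141, minus strand: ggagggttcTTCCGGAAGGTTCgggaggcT
HSP90AB1, chr6:44247769-44247798, plus strand: gggagcaggTTCTGGAAGATTCatgggctc
HSP90AB1, chr6:44247822-44247851, plus strand: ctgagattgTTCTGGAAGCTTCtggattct
HSPB1, chr7:76302480-76302509, plus strand: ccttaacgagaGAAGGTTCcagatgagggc
HSPD1, chr2:197500061-197500090, minus strand: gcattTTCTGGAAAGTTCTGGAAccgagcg
DNAJB1, chr19:14518456-14518485, minus strand: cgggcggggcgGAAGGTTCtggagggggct
DNAJB1, chr19:14518426-14518455, minus strand: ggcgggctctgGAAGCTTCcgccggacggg
HSP90AA1, HSP90AB1, HSPA8 and HSPD1 held stretches in which adjoining matches ran into each other, while HSPA1A, HSPA1B, HSPB1 and DNAJB1 held separate matches of 8 letters. The last capital of the HSP90AA1 stretch is the first base of a further match. The 10 genes had 16 annotated windows, of which 8 held a match, 1 each for 8 genes, and HSPH1 and HSPE1 had none. Among all 35116 promoter windows of the same length, 11.6% held at least 1 of the patterns (5.78% GAANNTTC and 6.62% TTCNNGAA). TATAAA was found in 2 of the 16 windows, those of HSPA1A and HSPA1B, against 10.7% of all windows, and CCAAT on either strand in 7 of the 16 against 32.0%. A match is a description of the letters and says nothing of binding in these cells.

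On the arrays, the heat shock genes did not move as a group. Set against the plates, CS cultures had 4 of the 10 genes higher and 6 lower by the brightest probe of each gene, and CSHA cultures had 5 higher and 5 lower. No gene reached a 2-fold difference on CS, and only HSP90AB1 did on CSHA, where it was 2.66-fold lower. Toward the other side, the largest difference was that of HSPA1B, 1.62-fold higher on CSHA. The 10 genes had a median log2 difference of -0.07 for CS minus TCP and 0.01 for CSHA minus TCP, next to 0.04 and 0.13 over all genes compared, of which 56.8% and 61.7% were higher than on TCP. Between the membranes, the median of CSHA minus CS was 0.01 for the 10 genes and 0.07 for all genes.

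**Figure D1:**
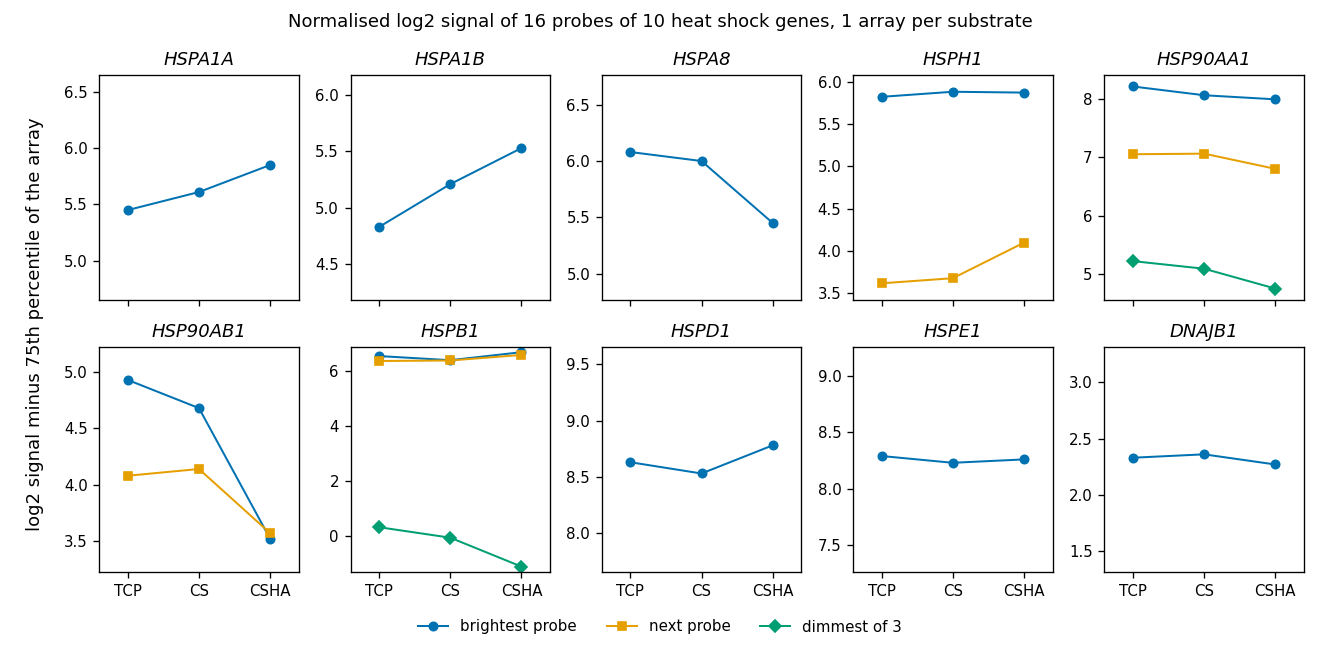
Normalised log2 signal (processed signal, minus the 75th percentile of the array) of each of the 16 probes on the TCP, CS and CSHA arrays, 1 array each. Lines join the values of 1 probe, and each panel has its own vertical range of at least 2 log2 units. HSPA1A and HSPA1B are higher on both membranes, HSPA8 and both HSP90AB1 probes are lowest on CSHA, and HSPE1 and DNAJB1 stay nearly level.

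A difference counts as called here when it is at least 2-fold, a log2 difference of 1, since 1 array per group allows no test. By that rule 1.36% of 14462 genes were called higher and 1.92% lower on CS than on TCP, and none of the 10 heat shock genes was. On CSHA against TCP, 3.02% of 14625 genes were called higher and 3.98% lower, and 1 of the 10 was called, in the lower direction. For CSHA against CS, 2.27% of 14599 genes were called higher and 2.15% lower, and again HSP90AB1 alone of the 10 was called, 2.24-fold lower. A count of 1 in 10 is too small to set against these shares, and nothing is read from it.

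The error that can be given is that of the array itself. A set of 626 probes was printed 10 times on each array, and the median SD among their spots was 0.054 for TCP, 0.047 for CS and 0.056 for CSHA in log2 units. The SD was smaller for brighter probes, so a probe with 1 spot was given the median SD of repeated probes of similar brightness. For the brightest probes of these genes with 1 spot, this gives a spread of 0.05 to 0.06 for a difference between arrays. For HSPA1A, with 10 spots, the spread is that of the mean of its own spots, 0.02 to 0.03. Beyond 2 of these spreads lay 5 of the 10 genes on CS against TCP, 7 on CSHA against TCP and 6 on CSHA against CS. The scanner software states a wider error of 10% of the signal for these spots, which amounts to 0.20 in a log2 difference. In the same order, 2, 5 and 6 genes lay beyond 1 such error, a milder limit than 2 of them. Neither error contains the spread between cultures. Every one of the 16 probes was well above background on all arrays. By the brightest probe of each gene, DNAJB1 was the dimmest of the 10. Among the 4766 genes at least as bright as DNAJB1, the quartiles of the log2 difference from TCP were -0.08 and 0.19 on CS and -0.11 and 0.31 on CSHA.

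HSPA1A and HSPA1B, the inducible HSP70 genes among the 10, were higher on both membranes. For HSPA1A on CS, however, the difference lay within the error stated by the scanner software. It also lay within the quartiles of genes at least as bright as DNAJB1. The dim HSPA6, from the list of other heat-inducible genes, was lower than on TCP, at -0.15 on CS and -0.33 on CSHA. A second HSPA6 probe gave 0.40 and -0.06. HSPA1A, measured by 10 spots on each array (probe A_23_P111132, NM_005345), had a mean processed signal of 15461 for TCP, 20639 for CS and 19448 for CSHA. Its normalised log2 level was 5.45 for TCP, 5.61 for CS and 5.85 for CSHA. The lowest level belonged to TCP and the highest to CSHA. The 10 spots spanned 5.26 to 5.51 (TCP), 5.55 to 5.68 (CS) and 5.80 to 5.90 (CSHA), with an SD of 0.071, 0.045 and 0.03. No spot of any array overlapped those of another, although the spots of an array share a single culture. The log2 difference from TCP was 0.16 (1.12-fold) on CS and 0.40 (1.32-fold) on CSHA, and CSHA was higher than CS by 0.24.

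HSPA1B, a near-identical copy of HSPA1A beside it on the chromosome (1 spot of probe A_33_P3415430, NM_005346), had a signal of 10079 for TCP, 15637 for CS and 15603 for CSHA. The levels were 4.83, 5.21 and 5.53 in the same order, so TCP was again lowest and CSHA highest. The log2 difference from TCP was 0.38 (1.30-fold) on CS and 0.70 (1.62-fold) on CSHA, each beyond the error stated by the software. These differences stood at the 89.9th and 92.4th percentile of all genes compared, and those of HSPA1A at the 69th and 77.9th. The probe sequences were not used here, and signal shared between the copies cannot be told apart, so the HSPA1A and HSPA1B values may not be independent.

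HSPA8, which encodes the constitutive HSC70, went the other way. Its probe (A_33_P3390758, NM_153201) had a signal of 23908 for TCP, 26962 for CS and 14781 for CSHA, and a level of 6.08, 6.0 and 5.45. TCP and CS lay close together and CSHA stood below them. The log2 difference from TCP was -0.08 on CS, within 2 spreads, and -0.62 on CSHA, a level 1.54-fold lower. CSHA minus CS was -0.54, and the CSHA differences stood at the 10.2th percentile against TCP and the 8.2th against CS. Within the same arrays, the log2 difference of HSPA1A minus that of HSPA8 was 0.24 on CS and 1.02 on CSHA, and that of HSPA1B minus HSPA8 was 0.46 and 1.32. The CSHA values of these contrasts ran from 1.0 to 1.09 and from 1.29 to 1.44 over the ways of processing, since a scaling of the whole array cancels in them. A contrast within an array shows unequal change and not that either gene stayed unchanged.

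The cofactors of HSP70 gave small values. HSPH1, the HSP110 nucleotide exchange factor, had a signal of 19981 for TCP, 24934 for CS and 19715 for CSHA (brightest of its probes), and levels of 5.82, 5.88 and 5.87. These levels lay within 2 spreads of each other. A second, dimmer HSPH1 probe read 4348, 5425 and 5777, with a log2 difference from TCP of 0.06 on CS and 0.48 on CSHA, so the probes of this gene disagreed on CSHA. DNAJB1, the J-domain partner of inducible HSP70, had a signal of 1780, 2167 and 1628 and levels of 2.33, 2.36 and 2.27. Its log2 difference from TCP was 0.03 on CS and -0.06 on CSHA, both within 2 spreads. The log2 difference of DNAJB1 minus that of HSPA1A was -0.13 for CS and -0.46 for CSHA.

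**Figure D2:**
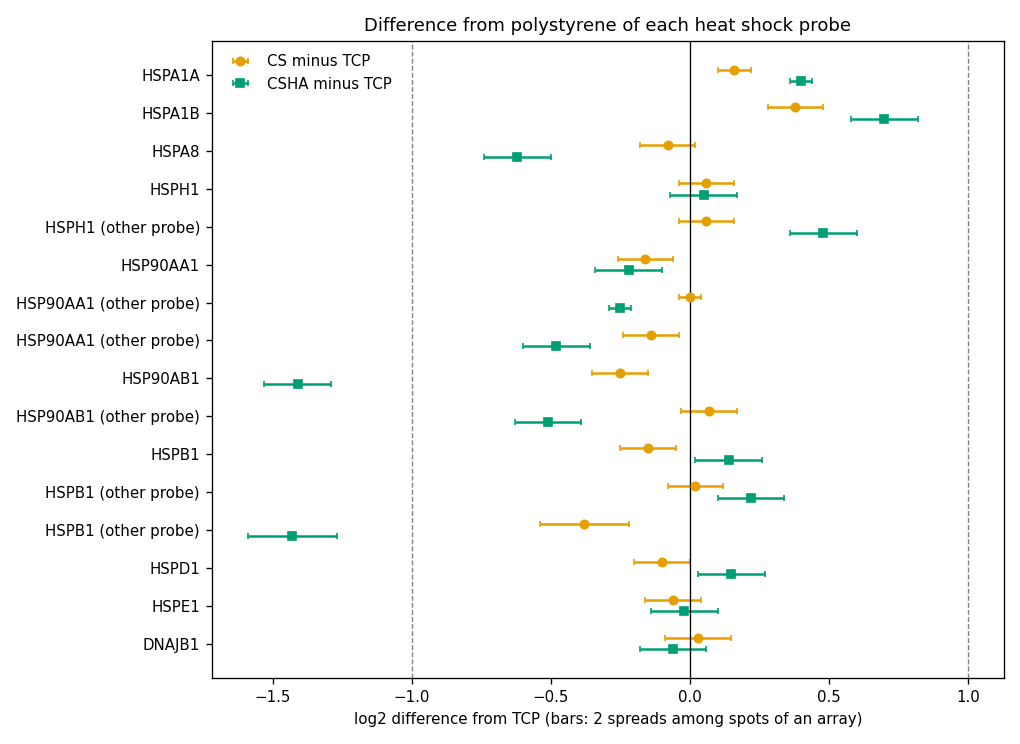
Log2 difference from TCP of each heat shock probe on CS (circles) and CSHA (squares), 1 array each; bars are 2 spreads among spots of an array and do not hold the spread between cultures, and dashed lines mark 2-fold. For a probe with 10 spots the bars are for the mean of its spots. On CSHA, HSPA1A and HSPA1B lie to the right (0.40 and 0.70), HSPA8 to the left (-0.62), and the brightest HSP90AB1 probe and the dim HSPB1 probe lie beyond 2-fold.

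The cytosolic HSP90 genes were both lower on CSHA, to different degrees, although HSP90AA1 turned to 0.21 above TCP when the arrays were scaled to spike-in RNA. HSP90AB1, which encodes the constitutive HSP90 beta, had a signal of 10769 for TCP, 10833 for CS and 3863 for CSHA for its brightest probe (A_23_P145089, NM_007355). Its level was 4.93, 4.68 and 3.52, so CSHA stood apart from the other arrays. The log2 difference from TCP was -0.25 on CS and -1.41 on CSHA, and that of CSHA minus CS was -1.16. These CSHA differences stood at the 1.3th percentile of all genes against TCP and the 1.4th against CS. A second probe of HSP90AB1 (A_24_P823684) read 5981, 7473 and 4003, with a log2 difference from TCP of 0.07 on CS and -0.51 on CSHA. The probes thus shared the direction on CSHA and not the size, and the 2-fold call rests on the brighter one. With the mean of both, the difference on CSHA was -0.96, just short of 2-fold, and with the spike-in scaling it was -0.98.

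HSP90AA1, which encodes the inducible HSP90 alpha, had 3 probes. The brightest (A_33_P3665777, NM_001017963) read 105108 for TCP, 112473 for CS and 85837 for CSHA, with levels of 8.21, 8.06 and 7.99. The probe with 10 spots (A_23_P162874, NM_005348) read 47001, 56222 and 37704, and the dimmest (A_32_P199252) read 13228, 14362 and 9058. All 3 probes were lowest on CSHA. In the order of brightness, the log2 differences from TCP were -0.16, 0.00 and -0.14 on CS and -0.22, -0.25 and -0.48 on CSHA. The levels of the 10 spots spanned 7.01 to 7.12 (TCP), 6.99 to 7.11 (CS) and 6.75 to 6.85 (CSHA), so TCP and CS overlapped and CSHA did not. The log2 difference of HSP90AA1 minus that of HSP90AB1 was 1.19 on CSHA and 0.09 on CS, and with the mean over probes it was 0.64 on CSHA.

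**Figure D3:**
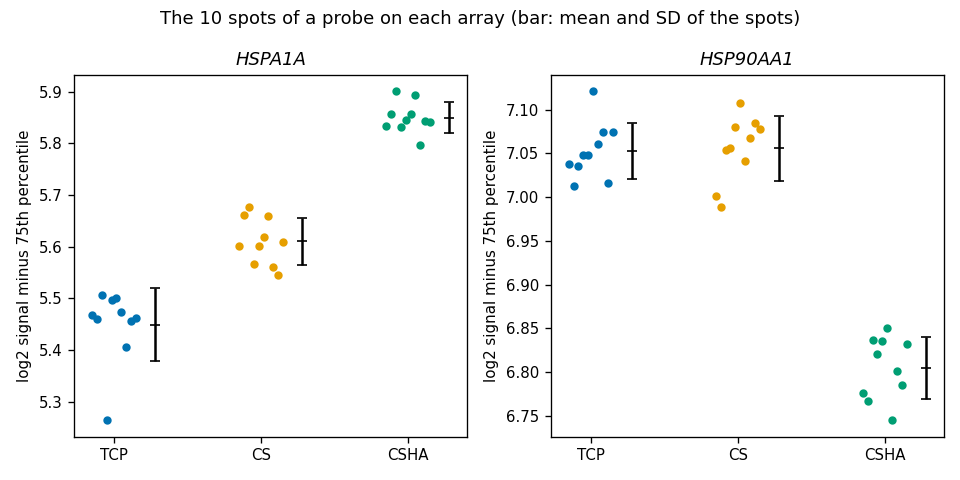
Normalised log2 level of each of the 10 spots of the HSPA1A probe and of an HSP90AA1 probe on the TCP, CS and CSHA arrays, with the mean and SD of the spots beside them; the spots come from 1 culture per substrate. The 3 arrays separate for HSPA1A, while for HSP90AA1 the TCP and CS spots overlap and all CSHA spots lie lower under this scaling.

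HSPB1, the small heat shock protein HSP27, lay on opposite sides of TCP on the membranes by its brightest probe only. Its brightest probe (A_33_P3287646, NM_001540) read 32748 for TCP, 35265 for CS and 34304 for CSHA, with levels of 6.53, 6.38 and 6.67. CS was lowest and CSHA highest, with log2 differences from TCP of -0.15 and 0.14, both within the software's error of 0.20. The median of all genes was 0.04 on CS and 0.13 on CSHA, so the CSHA value of this probe was close to it. A second bright probe read 28922, 34940 and 32039, with differences of 0.02 and 0.22. The third HSPB1 probe (A_33_P3353242) was far dimmer, at 441, 405 and 156, and its log2 difference from TCP was -0.38 for CS and -1.43 for CSHA. On CSHA the bright probes were thus higher and the dim probe was 2.69-fold lower, and the mean over all 3 was at -0.36.

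The mitochondrial chaperonin genes, which lie head to head on the chromosome, differed by little. HSPD1 (HSP60) read 139914 for TCP, 155829 for CS and 148371 for CSHA, with levels of 8.63, 8.53 and 8.78. HSPE1 (HSP10) read 110448, 126733 and 103522, with levels of 8.29, 8.23 and 8.26. The levels of HSPE1 lay within 2 spreads of each other on all arrays, and HSPD1 was highest on CSHA. The log2 difference from TCP was -0.10 on CS and 0.15 on CSHA for HSPD1, and -0.06 and -0.02 for HSPE1. Over all genes the medians were 0.04 and 0.13. HSPD1 minus HSPE1 was -0.04 on CS and 0.18 on CSHA. No spot was saturated on any array. HSPD1, HSPE1, HSPA8 and the HSP90 genes have processed pseudogenes of similar sequence, and the share of these in a probe's signal was not tested.

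HSP90AB1 was the gene of the 10 with the largest difference from TCP, and the 5 other genes closest to it were found by the distance between the log2 differences from TCP on CS and CSHA, over 13478 genes well above background on all 3 arrays. They were ACOT7 (-0.23 on CS and -1.42 on CSHA), CAPNS1 (-0.25 and -1.43), ZNF623 (-0.28 and -1.39), BAP1 (-0.25 and -1.45) and LGALS3BP (-0.25 and -1.37). In all, 70 genes lay within a distance of 0.2 of HSP90AB1. The likeness rests on 2 differences that share the TCP array.

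Among the partners of HSP90, client-loading and regulatory co-chaperones were compared with TCP. Of 17 HSP90 co-chaperone genes compared, 6 were higher and 11 lower on CS, with a median log2 difference of -0.06, and 5 were higher and 12 lower on CSHA, with a median of -0.23, where all genes had a median of 0.13 and 61.7% higher. On CSHA 3 of the 17 were at least 2-fold lower, a call made for 3.98% of all genes, STIP1 (HOP, which joins HSP70 and HSP90) at -1.37, TTC4 at -1.41 and the phosphatase PPP5C at -1.20, and none was 2-fold higher. With the spike-in scaling these were -0.94, -0.98 and -0.77, none of them 2-fold, and the median of the list turned to 0.20 where that of all genes was 0.56. A second STIP1 probe gave -1.62 under the reported scaling. STIP1 read 1812 for TCP, 1445 for CS and 670 for CSHA, so it was lowest on CSHA like HSP90AB1. Toward the other side, the kinase co-chaperone CDC37 had the highest difference of the list on CSHA, at 0.36. The p23 gene PTGES3 had the highest of the list on CS, at 0.24, and was at 0.26 on CSHA. For CSHA against CS the median was -0.17, next to 0.07 for all genes. TTC4 was called lower at -1.04 (-0.67 with the spike-in scaling), where 2.15% of all genes were.

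Among the relatives and exchange factors of HSP70, 13 genes were compared, with 9 higher and 4 lower on CS (median 0.07) and 8 higher and 5 lower on CSHA (median 0.03). All genes had medians of 0.04 and 0.13, with 56.8% and 61.7% higher. BAG3, a stress-induced exchange factor, was the lowest in both comparisons with TCP, at -0.60 (CS) and -1.02 (CSHA), from signals of 674, 532 and 316, and it was the only called gene of the list, at -0.59 with the spike-in scaling. BAG1 was highest, at 0.40 and 0.45, while its dimmer probes gave 0.30 and 0.15 on CS and 0.29 and 0.00 on CSHA. Of 15 cytosolic J-domain genes, none was called. Over all genes, 1.36% were called higher and 1.92% lower on CS, and 3.02% and 3.98% on CSHA. Nothing is read from the counts of called genes in these lists. DNAJA2 was highest, at 0.44 on CS and 0.36 on CSHA, DNAJC7 was lowest on CS at -0.57 and DNAJA1 was lowest on CSHA at -0.48.

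**Figure D4:**
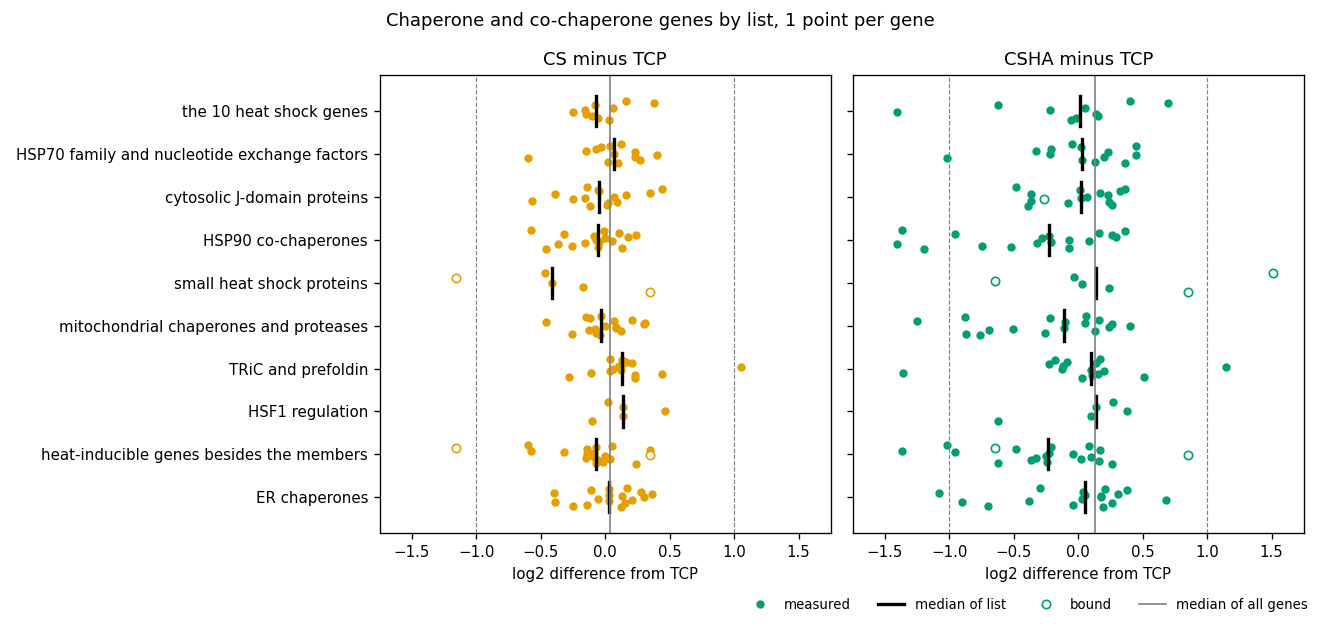
Log2 difference from TCP on CS (left) and CSHA (right) of the 10 heat shock genes and of 9 lists of chaperone genes, 1 point per gene by its brightest probe, with the list median (black), the median of all genes (grey line), bounds for genes measured on only 1 of the arrays (open points) and 2-fold (dashed). On CSHA the HSP90 co-chaperones and the other heat-inducible genes have medians of -0.23 (0.20 with the spike-in scaling). The HSF1 list has a median of 0.14, next to 0.13 for all genes.

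HSF1 was close to TCP on CS and higher on CSHA. It read 23340 for TCP, 28250 for CS and 26800 for CSHA, with a log2 difference from TCP of 0.02 on CS and 0.27 on CSHA, and a second bright probe gave 0.02 and 0.26. The CSHA differences of both lay beyond the software's error of 0.20. They lay within the quartiles of genes at least as bright as DNAJB1, -0.11 and 0.31. The dimmest HSF1 probe gave -0.12 and 0.60. HSF2 was at 0.14 on both membranes, next to a median over all genes of 0.04 on CS and 0.13 on CSHA. Among 20 other heat-inducible genes, 5 were higher and 15 lower on CS (median -0.07), and 7 were higher and 13 lower on CSHA (median -0.23), with BAG3 and STIP1 called lower on CSHA, where 3.98% of all genes were, and HSPB8 at least 2-fold lower on CS, where 1.92% were. With the spike-in scaling BAG3 and STIP1 were at -0.59 and -0.94, short of 2-fold. HSPB8 was well above background on TCP only. The list shares BAG3 and 2 other genes with the HSP70 list and STIP1 and 4 others with the co-chaperone list, so these counts overlap.

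The small heat shock proteins besides HSPB1 were mostly dim. Of 9 genes, 5 could be compared on CS and 6 on CSHA, with medians of -0.41 and 0.13. HSPB3 was well above background on CSHA only, where it read 65.2 against 5.16 on TCP and 4.59 on CS, a log2 difference from TCP of at least 1.51. For CRYAB, TCP was the array not well above background, and the log2 difference from it was at least 0.35 for CS and 0.85 for CSHA.

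In the mitochondria, the other chaperones and proteases had 8 of 17 genes higher on CS (median -0.03) and 7 of 17 on CSHA (median -0.11). All genes had medians of 0.04 and 0.13. DNAJA3, the mitochondrial J-domain partner of mortalin, read 6840 for TCP, 8557 for CS and 2735 for CSHA, a log2 difference from TCP of 0.07 on CS and -1.25 on CSHA, and it was the only called gene of the list. Mortalin itself, HSPA9, was close to level at -0.03 and 0.06. Among 15 genes of the cytosolic chaperonin TRiC and its partner prefoldin, 13 were higher on CS (median 0.13, next to 0.04 and 56.8% higher over all genes) and 9 on CSHA (median 0.10, next to 0.13 and 61.7%). The dim CCT6B was called higher on both membranes, at 1.05 and 1.15, and PFDN2 was called lower on CSHA at -1.36. Among 17 chaperones of the endoplasmic reticulum, 11 were higher on each membrane (medians 0.03 and 0.05), and HYOU1 was called lower on CSHA at -1.08. With the spike-in scaling DNAJA3, PFDN2 and HYOU1 were at -0.82, -0.93 and -0.65 on CSHA, short of 2-fold, and CCT6B was at 1.10 on CS and 1.58 on CSHA. Over all genes, 3.98% were called lower and 3.02% higher on CSHA, and 1.36% higher on CS. Nothing is read from calls of single genes in lists of this size.

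**Figure D5:**
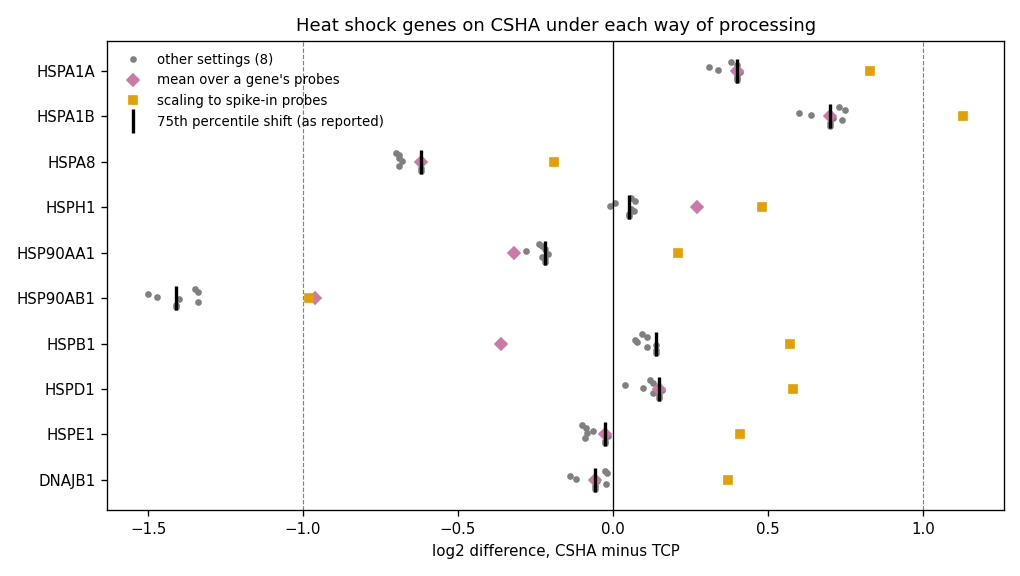
Log2 difference CSHA minus TCP of each heat shock gene under the reported setting (black bar) and under 10 alternatives, with the mean over all probes of a gene (diamonds) and the scaling to spike-in probes (squares) marked; dashed lines mark 2-fold. HSPA1A and HSPA1B stay above 0 and HSPA8 and HSP90AB1 below 0 under all of them, while HSP90AA1, HSPE1 and DNAJB1 turn from below to above 0 with the spike-in scaling. The alternatives that change only the filter on dim probes could not move these genes.

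All arrays shared 1 slide and 1 scan. The 75th percentile of signal stood at 354.0 for TCP, 422.5 for CS and 337.2 for CSHA, and 48.6% to 51.1% of probes were well above background. The 7 spike-in probes stood 4.04, 3.98 and 3.61 log2 units above that percentile, so scaling to them put the median of all genes at 0.56 for CSHA against TCP. Under that scaling HSP90AB1 was at -0.98, HSPA8 at -0.19, HSPA1A at 0.83 and HSPA1B at 1.13 on CSHA against TCP, and the HSP90 co-chaperones and the other heat-inducible genes turned to medians of 0.20, still below that of all genes. The part of these levels of spike-in signal in the differences was not tested, and fewer cells with a transcript and less of it per cell cannot be told apart in RNA of a whole culture.

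The label of the cells was checked on markers. Of 11 colon epithelial markers, 10 were well above background on TCP and all 11 on CS and CSHA, and their summed signal relative to the 75th percentile was 1310, 1180 and 1380. Of 8 fibroblast markers, only SPARC and VIM were well above background, on TCP, and the summed signal was 0.273, 0.123 and 0.118. COL1A1, COL1A2, COL3A1, DCN, LUM and PDGFRA were not well above background on any array. Of the 4 immune markers with a probe, 2 to 4 were well above background (summed signal 0.804 to 0.973), and of the 3 endothelial markers all 3 (0.319 to 0.385). The part of any such signal in the heat shock values was not tested.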

How the data were processed

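RNA of HT29 cells grown on TCP, CS and CSHA went onto 3 single-colour Agilent arrays, 1 per substrate, so no test was made and the number of arrays limits the precision. Spot intensity values deposited by the authors came from Feature Extraction 10.7.3.1 (per the file headers; the methods name another version) and they added a table of log2 values. Per spot, differences between arrays in the deposited log2 table equalled those of the log2 median signal plus a constant, to within 9.8e-08, so its scale and direction are known, while its centring per spot and shift were not stated; its column medians were 0.013, -0.129 and 0.0427. No deposited column was without a sample (0). As in the methods, signals under a floor of 1 were set to it (0 spots), and each array's 75th percentile over non-control probes was subtracted on the log2 scale; the processed signal, which the software corrects for background, was used. Spots with an outlier flag were dropped, and the 10 spots of a repeated probe averaged. The labels name RNeasy and Low Input Quick Amp kits with 0.1 ug RNA, and the methods name other reagents.

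Accessions were matched to symbols through RefSeq genes of GRCh38.p14; the files use hg19, so no coordinates were joined. Of 50599 probes, 30004 had 1 symbol and 20595 none. The brightest probe stood for a gene, and for the members every probe is given beside it. A gene was compared where at least 1 of the 2 arrays was well above background, as a bound where 1 was not. The members and lists were chosen with earlier results of these data known. Named genes are all members, the highest and lowest and the called genes of the lists, HSF1, HSF2 and the 5 genes most like the member with the largest difference. Not every gene this selects is printed, and HSPA6 and HSPA9 were named outside the rule after their values were seen. Alternatives were normexp (offset 50), no background subtraction, quantile normalization, other centrings, the deposited values, other filters, the mean over probes, 1.5-fold and 3-fold thresholds, and, added with the data in view, a scaling to 7 spike-in probes. The calculation was tested on simulated data. The tools were Python 3.11.15, numpy 2.4.6, pandas 2.3.3, matplotlib 3.10.9, R 4.3.3 and limma 3.58.1.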

Additional observations from a re-analysis of the deposited data

Results flagged for a closer look

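By its brightest probe only, HSPB1 lay on opposite sides of TCP on the membranes. The log2 differences were -0.15 (CS) and 0.14 (CSHA), which places CSHA above CS by 0.29. Both differences from TCP lay within the scanner software's error of 0.20, and that on CSHA was close to the median of all genes, 0.13. The difference was not tested, since each substrate had 1 array. The second bright probe was at 0.02 and 0.22, and the dimmest probe was below TCP on both membranes, at -0.38 and -1.43.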

How the results depend on the processing

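The 10 heat shock genes gave 300 values under 10 alternatives, of which 218 moved by less than the spread among spots, 82 moved by more, and 16 changed sign, 10 of them without the spike-in scaling. The 218 include values that could not move. Changing the filter on dim probes could not alter these genes, since their probes were well above background on all arrays. The mean over probes could not alter HSPA1A, HSPA1B, HSPA8, HSPD1, HSPE1 and DNAJB1, which had 1 probe each. HSPA1A and HSPA1B stayed above TCP and HSPA8 and HSP90AB1 below it on CSHA under every alternative, with ranges of 0.31 to 0.83, 0.60 to 1.13, -0.70 to -0.19 and -1.5 to -0.96. With the mean over probes HSPB1 on CSHA turned to -0.36 against TCP. The cause of these moves was not tested. With 1 array per substrate no array could be left out. All 16 probes were well above background on each array. No paired analysis was possible because each substrate had 1 sample.

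In what follows, values are for CS against TCP, CSHA against TCP and CSHA against CS in that order. Genes at least 2-fold higher numbered 34, 123 and 47 with the deposited values, 420, 741 and 514 with the mean over probes, 66, 171 and 93 without background subtraction, 634, 1130 and 1111 without a filter, 57, 155 and 105 with normexp, and 84, 264 and 108 with probes well above background on all arrays. Genes at least 2-fold lower numbered 40, 277 and 116 with the deposited values, 89, 313 and 159 without background subtraction, 1152, 1191 and 676 without a filter, and 104, 292 and 148 with normexp. They numbered 421 for CS against TCP and 476 for CSHA against CS with the mean over probes, and 80 and 203 with probes well above background on all arrays. With the spike-in scaling, chosen after seeing the data, 1768 genes were higher and 181 lower for CSHA against TCP, and 987 and 117 for CSHA against CS. At 1.5-fold, 595, 1685 and 1122 genes were higher and 728, 1637 and 1070 lower, and at 3-fold 75, 149 and 133 were higher and 123, 128 and 79 lower.

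Of the 10 heat shock genes, 0 were 2-fold lower for CSHA against TCP and 0 for CSHA against CS with the mean over probes, with the spike-in scaling and at 3-fold. With the spike-in scaling 1 was higher for CSHA against TCP (HSPA1B), and at 1.5-fold 1 was higher and 2 were lower. Their median for CSHA against TCP was -0.045 with the percentile taken over detected probes, and 0.44 with the spike-in scaling, which gave 0.39 for CSHA against CS. Of the 9 lists, those with a median above that of all genes numbered 3, 2 and 1. For CS against TCP they became 6 without a filter. For CSHA against TCP they became 4 without background subtraction, 5 without a filter, 1 with probes well above background on all arrays and 1 with quantile normalization. For CSHA against CS they became 2 with the deposited values and 2 without background subtraction.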
